A study of Mus musculus with 32 samples.

Results

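A group of 10 genes of the Hedgehog pathway and of its ventral readout was followed through injured mouse spinal cord: Shh, Ptch1, Smo, Gli1, Gli2, Gli3, Hhip, Boc, Nkx6-1 and Nkx6-2. They were taken by symbol from a table of read counts, as 10 of its 23420 genes. The genes were chosen by symbol with their CPM (gene counts per 1 M counts of the library) in all 10 groups of the same libraries in view. Levels, fold changes and adjusted p-values are therefore given as a description within the fit over all genes and support no pattern independently. All 10 passed the filter on low counts and were among the 16314 genes tested.

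RNA came from the cord segment around the lesion of C57BL/6J mice aged 8 to 12 weeks and was read by bulk RNA-seq as paired ends of 150 bases, in 32 libraries of 10 groups. Uninjured operated cords (sham) were taken at 3 days (n = 3) and 35 days (n = 3). Injured cords with the control treatment were taken at 3 days (n = 3), 14 days (n = 3) and 35 days (n = 4), injured cords labelled Gsx1 at 3 days (n = 3), 14 days (n = 3) and 35 days (n = 4), and injured cords labelled Nkx6.1 at 3 days (n = 3) and 35 days (n = 3). The factors named by these labels, Gsx1 and Nkx6.1, belong to the homeobox family and act in neural progenitors. How they or the control were delivered is not given in the labels. The sham labels name no control treatment, so lesion and control treatment cannot be told apart in a comparison of injured control with sham. Whether each replicate is an animal of its own is not stated in the labels, so the p-values measure only the spread between these samples, which may be technical.

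Hedgehog signalling starts with a secreted ligand, of which Sonic hedgehog (Shh) is the one made by the notochord and floor plate of the embryonic cord. The ligand binds Patched (Ptch1), which then stops holding back the membrane protein Smoothened (Smo), and the signal passes through the primary cilium to the Gli transcription factors. Ptch1, Hhip and Gli1 are themselves textbook targets of the pathway, and Nkx6-1 and Nkx6-2 are homeobox factors switched on by Shh in ventral progenitors; Nkx6-2 is also known from mature oligodendrocytes.

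Total counts ranged from 10.8 to 19.5 M (mega) per library, with a median of 14.6 M. The counted Nkx6-1 transcript was not higher in the groups labelled Nkx6.1 than in injured controls (values below), and Gsx1 had 0 to 10 counts in every library, so the treatments are named here by their labels. In the marker lists, 7 of 8 neuronal genes were lower and 7 of 7 macrophage and microglial genes were higher in injured control than in sham cords at 3 days, and 6 of 8 and 7 of 7 at 35 days (over all genes, 16% were lower and 19.5% higher at 3 days, and 15.5% and 21.3% at 35 days). Their summed levels ran from 8490 to 8787 CPM (on library totals scaled by edgeR's TMM method) for neurons in sham cords and from 4164 to 5097 CPM in injured controls at 3 days, and from 218 to 256 CPM against 1955 to 3277 CPM for macrophages. Each of these neuronal and macrophage markers had counts in every library. Their part in the results was not tested, and fewer cells of a type and less RNA per cell cannot be told apart in bulk tissue. Of the floor plate markers, Foxa2 had 0 to 4 counts in every library and 0 in all sham and injured control libraries at 35 days, while Ntn1 and Spon1, which other cells also make, gave the list a sum of 131 to 254 CPM. At 3 days, the library of injured control replicate 3 and that of Nkx6.1 replicate 2 held skeletal muscle transcripts (243 and 435 CPM summed over 5 genes, against 2.32 to 15.2 CPM in the other 10 libraries of that time). Xist was above 100 CPM in 7 libraries, unevenly spread over the groups. On day 3 these were sham replicates 1 and 2 (503 and 539 CPM) with control replicate 1 (778 CPM). On day 35 they were sham replicate 3 (520 CPM), control replicates 1 and 4 (407 and 676 CPM) and Nkx6.1 replicate 2 (666 CPM). No Gsx1 library, no library of day 14 and no Nkx6.1 library of day 3 passed that level. The groups of days 3 and 35 are thus not matched in this mark of sex. High Xist came together with Y-linked Ddx3y in sham replicate 1 of day 3 (19.1 CPM) and control replicate 4 of day 35 (32.1 CPM).

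The 250 bases before the annotated start of Ptch1 and of Hhip are shown because both genes are textbook Hedgehog targets whose levels moved alike over the groups. Both are RefSeq sequences of GRCm38.p6 on the minus strand, written 5′ to 3′, with each GC box (GGGCGG or its reverse complement CCGCCC) in capitals. The Ptch1 window lies at chr13:63565736-63565985 and the Hhip window at chr8:80058009-80058258. The Ptch1 window belongs to the RefSeq start of that table, which lies inside the longer GENCODE gene whose ends are given below, so another start of Ptch1 lies farther upstream.
Ptch1: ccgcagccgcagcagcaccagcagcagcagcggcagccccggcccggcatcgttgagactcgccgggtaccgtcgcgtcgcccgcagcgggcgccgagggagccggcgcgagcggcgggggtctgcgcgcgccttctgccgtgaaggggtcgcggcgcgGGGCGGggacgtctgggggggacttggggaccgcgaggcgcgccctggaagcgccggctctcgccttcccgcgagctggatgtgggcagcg
Hhip: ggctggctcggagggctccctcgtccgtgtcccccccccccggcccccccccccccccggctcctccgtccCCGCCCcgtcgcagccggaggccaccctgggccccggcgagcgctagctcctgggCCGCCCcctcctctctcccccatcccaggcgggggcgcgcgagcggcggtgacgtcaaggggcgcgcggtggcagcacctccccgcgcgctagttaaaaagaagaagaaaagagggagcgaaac
The Ptch1 stretch holds 1 GC box and the Hhip stretch 2. The promoter table, with windows from 250 bases before to 50 after the start, matched 7 of the 10 genes, and 5 of the 7 windows hold a GC box on either strand, against 35.7% of all 32851 promoters in the table. The 7 windows are 66.7 to 76.3% G and C, against a median of 52.7% over all promoters, and the GC box holds no other bases. The consensus Gli site GACCACCCA, searched on both strands, is in 0 of the 7 windows and in 0.253% of all promoters. The motifs do not overlap in their letters, and the missing match says only that these letters are not in these windows.

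In sham cords at 3 days, Nkx6-2 was the most abundant of the 10 genes once counts were set against exon length, at 27.8 ± 1.24 CPM per kilobase (SD, n = 3). Ptch1 stood at 8.03 ± 0.55 and Smo at 6.70 ± 0.83 CPM per kilobase (both SD, n = 3). Hhip (4.96), Boc (4.73) and Shh (3.65) followed, with library ranges that overlapped between Hhip and Boc and between Boc and Shh. Nkx6-1 lay at 2.52 CPM per kilobase, and the 3 Gli genes were lowest, with Gli1 at 1.59, Gli2 at 1.30 and Gli3 at 0.98. At 35 days the same scale ran from 28.7 CPM per kilobase for Nkx6-2 to 0.94 for Gli2, with Boc (5.11) then above Hhip (4.29) and Gli3 (1.00) in the place above Gli2, where the Gli3 and Gli2 ranges overlapped. Between sham cords at 35 and 3 days, 0 of the 10 genes passed edgeR's test (0.00613% of all genes). Its unadjusted p was under 0.05 for 0 of the 10 and for 1171 of all 16314 genes. DESeq2 called 0 of the 10, and 38 of the 16072 genes to which it gave an adjusted p. The library ranges of the sham groups did not overlap for 1 of the 10 (Gli2), against 25.1% of all genes.

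**Figure D1:**
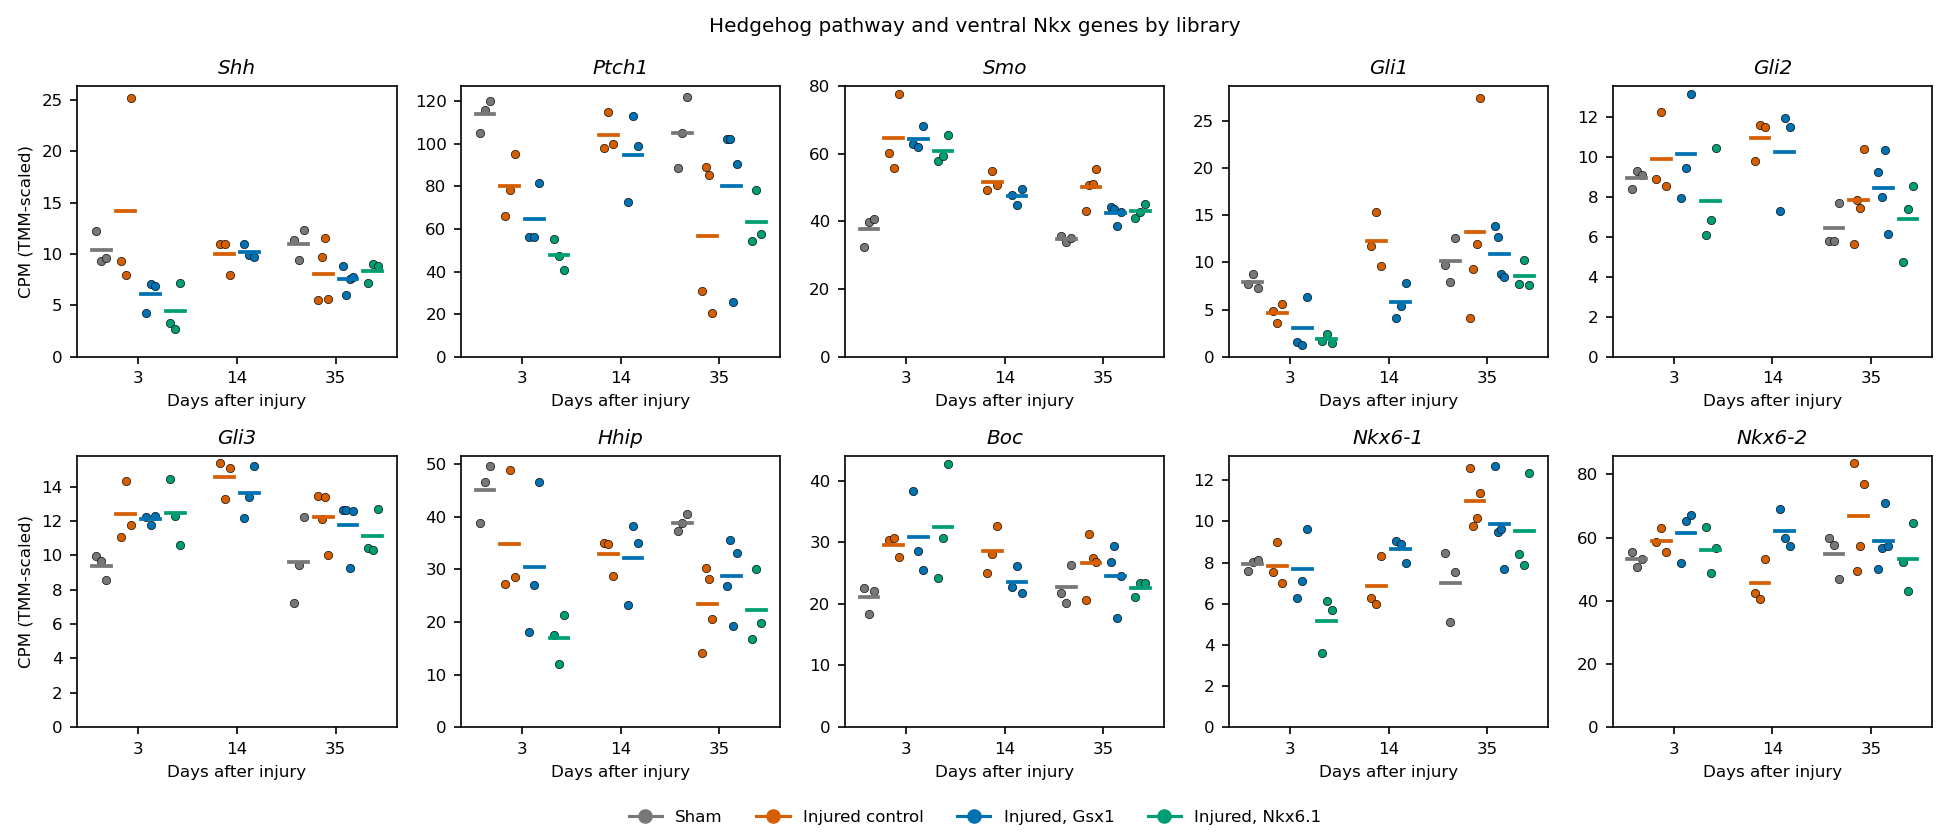
CPM (vertical axis, on TMM-scaled totals, from 0, a different range in each panel) of the 10 genes by days after injury (horizontal axis), in sham, injured control, Gsx1 and Nkx6.1 libraries. Points are libraries and bars are group means. Smo in all 9 injured libraries at 3 days (55.9 to 77.7 CPM) lies above the 3 sham libraries, and Ptch1 in all 9 lies below them. How often other genes separate in this way was not counted. Single libraries stand apart for Shh (25.2 CPM, injured control, 3 days) and Gli1 (27.4 CPM, injured control, 35 days).

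Between conditions the 10 genes differed in how far they spread. Gli1 varied most, with a 7.11-fold ratio of the highest group mean (injured control, 35 days) to the lowest (Nkx6.1, 3 days), followed by Shh (3.22-fold), Hhip (2.65-fold), Ptch1 (2.38-fold) and Nkx6-1 (2.13-fold). Smo (1.85-fold), Gli2 (1.70-fold), Gli3 (1.55-fold), Boc (1.54-fold) and Nkx6-2 (1.47-fold) varied less. The highest means of Gli1 and Shh each leaned on a single library. For Gli1 it was 13.2 ± 10.0 CPM (SD, n = 4), with a median of 10.6 and a maximum of 27.4 CPM. For Shh (injured control, 3 days) it was 14.2 ± 9.59 CPM (SD, n = 3), with a median of 9.36 and a maximum of 25.2 CPM. When the 10 groups were put in order of their means, the library ranges of 9 of 9 neighbouring pairs overlapped for each gene except Smo, where 8 of 9 did. The Nkx6.1 group at 3 days was the lowest of the 10 groups for 5 genes, Shh, Ptch1, Gli1, Hhip and Nkx6-1. How many of all genes are lowest in that group was not counted. The same group had the lowest mean sums of astrocyte (4342 CPM) and neuronal genes (3204 CPM) and the highest of macrophage genes (5672 CPM). Their part was not tested.

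Genes were called changed at a Benjamini-Hochberg adjusted p under 0.05 over all genes, from edgeR's quasi-likelihood test. In injured control against sham cords at 3 days, Smo and Boc rose and 8 genes did not pass, so 2 of 10 were called where 35.5% of all genes were (19.5% higher). At 35 days, Smo and Nkx6-1 rose and Hhip fell, 3 of 10 against 36.8% of all genes (21.3% higher and 15.5% lower). The median log2 fold change of the 10 genes was 0.15 at 3 days and 0.29 at 35 days, beside 0.01 and 0.04 over all genes tested. The library ranges did not overlap for 6 of the 10 genes at 3 days (55.6% of all genes) and for 3 at 35 days (38.4%). Below, all injured libraries of a time are also set against sham, gene by gene. For these pooled ranges no share over all genes was counted, so a separation does not set a gene apart from other genes. In injured controls between 3 and 35 days, Gli1 rose and Smo fell, 2 of 10 against 11% of all genes, of which 5.04% rose and 5.97% fell. The ranges did not overlap for 2 of the 10 genes (Smo and Nkx6-1), against 18.4% of all genes. The difference between the injury effects at the 2 times passed for 0 of the 10 genes (0.362% of all genes). For 1 of the 10, Nkx6-1, edgeR's unadjusted p was under 0.05, as it was for 1563 of all 16314 genes. DESeq2 called 0 of the 10, and 226 of the 18083 genes to which it gave an adjusted p.

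For the labelled treatments against injured control cords, Shh in the Nkx6.1 group at 3 days was the only call among these genes, 1 of 10 against 0.337% of all genes (0.19% lower). That background of 55 genes rested on single libraries: edgeR called 2571 genes without Nkx6.1 replicate 3, 235 without control replicate 1, 7 and 6 without Nkx6.1 replicate 1 and 2, and 0 without control replicate 2 or 3. The Gsx1 comparisons at 3, 14 and 35 days and the Nkx6.1 comparison at 35 days each called 0 of the 10 and 0% of all genes by edgeR. Over all genes, edgeR called 1872 for Gsx1 at 35 days without injured control replicate 2, up to 11 for Gsx1 at 14 days without any 1 library, and 72 for Nkx6.1 at 35 days without Nkx6.1 replicate 3, with 0 of the 10 among them. At an unadjusted p under 0.05 in edgeR's test, 4 of the 10 genes and 2984 of all 16314 passed for Nkx6.1 at 3 days. In the other 4 comparisons, 1 of the 10 passed for Gsx1 at 3 days, 2 at 14 days and 1 at 35 days. For Nkx6.1 at 35 days 1 passed. Of all genes, 338, 960, 3077 and 2006 passed in these 4 comparisons, in that order. DESeq2 called 0 of the 10 in each of these 4 comparisons, and 0, 43, 11 and 0 of all genes. It gave an adjusted p to 20904, 16072, 5201 and 20904 genes, in the same order. A gene without one counted as not called, so its 0 for Gsx1 at 35 days may include genes that got none. The ranges did not overlap for 1 of the 10 genes (Shh) for Gsx1 at 3 days, against 7.5% of all genes, for 0 at 35 days (4.37%), and for 0 for Nkx6.1 at 35 days (4.6%). The injured control libraries of each time are shared by its injury, Gsx1 and Nkx6.1 comparisons.

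**Figure D2:**
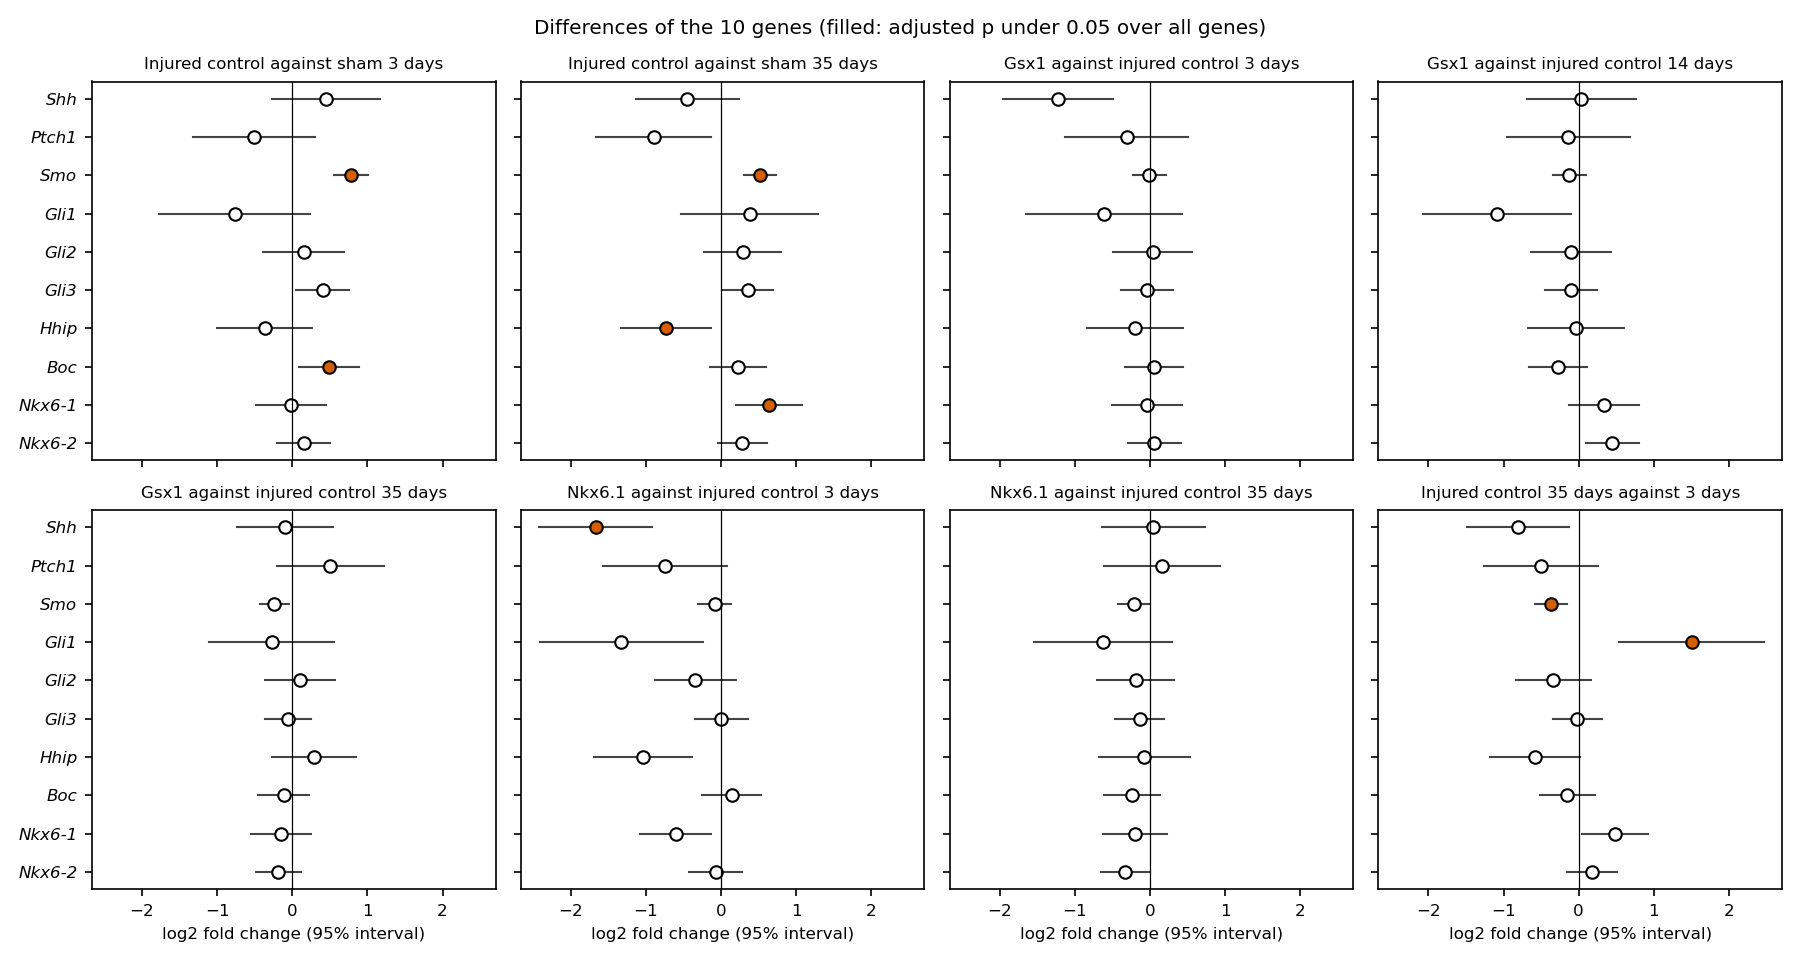
log2 fold change (horizontal axis, with its 95% interval as a bar) of each of the 10 genes (vertical axis) in 8 comparisons, with adjusted p under 0.05 over all genes as filled points. Filled points are Smo and Boc for injury at 3 days, Smo, Hhip and Nkx6-1 for injury at 35 days, Shh for Nkx6.1 at 3 days, and Smo and Gli1 for injured controls at 35 against 3 days.

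Shh (chromosome 5, 28456815 to 28467256, minus strand, GRCm38) is the ligand. It had 12.2, 9.36 and 9.57 CPM in the sham libraries at 3 days and 9.36, 7.99 and 25.2 CPM in injured controls. The third injured control library, which is the one with muscle transcripts, lay above every sham library, and the other two lay at or below the lower end of the sham range. The Gsx1 libraries of that day had 4.25, 7.08 and 6.88 CPM, and the Nkx6.1 libraries 3.31, 2.69 and 7.22 CPM. All 6 of these libraries lay below all 3 injured controls. Against injured controls, Shh fell by 1.67 ± 0.37 on the log2 scale in the Nkx6.1 group (3.18-fold lower, SE, edgeR adjusted p = 0.0471). The difference in the Gsx1 group was -1.22 ± 0.36 (edgeR adjusted p = 1). Without the 2 libraries high in muscle genes, the Nkx6.1 difference was -0.69 (edgeR adjusted p = 0.741), and without injured control replicate 3 alone it was -0.95 (adjusted p = 0.254). Without that control library the Gsx1 difference was -0.51 (edgeR adjusted p = 1). The Nkx6.1 call was also lost without control replicate 2 (0.103), without Nkx6.1 replicate 1 (0.165) or 2 (0.252), without the filter (0.0559) and with only the compared groups fitted (0.336). That control library also held Schwann cell transcripts at 1616 CPM summed over 6 genes, against 706 and 502 CPM in the other two, and their part in the difference was not tested.

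At later times Shh was flatter. It had 11.0, 10.9 and 7.97 CPM in injured controls and 11.0, 9.93 and 9.71 CPM in Gsx1 libraries at 14 days. At 35 days it had 11.3, 9.41 and 12.3 CPM in sham, 5.49, 9.72, 11.5 and 5.58 CPM in injured control, 8.84, 5.96, 7.57 and 7.78 CPM in Gsx1, and 7.13, 9.06 and 8.84 CPM in Nkx6.1 libraries. Of the 11 injured libraries at 35 days, 9 lay below the sham range and none above it. Injured control against sham differed by -0.45 ± 0.33 (log2, SE, edgeR adjusted p = 0.296). Shh shares its locus with an antisense transcript, 9530036O11Rik, and the strand setting of the counting is not given, so reads of the pair may not be separated.

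Ptch1 (chromosome 13, 63508328 to 63573598, minus strand), the receptor that holds back Smo, had 105, 116 and 120 CPM in sham cords at 3 days. It had 66.1, 78.5 and 95.4 CPM in injured control, 56.0, 56.2 and 81.6 CPM in Gsx1, and 55.5, 47.1 and 40.8 CPM in Nkx6.1 libraries. All 9 injured libraries lay below the 3 sham libraries. The injured control difference of -0.51 ± 0.40 (log2, SE) did not pass the test in the fit of all groups (edgeR adjusted p = 0.336). Fitted on the 6 libraries of that comparison alone, it was -0.49 with an adjusted p of 0.0116. The Nkx6.1 and injured control ranges did not overlap, at -0.75 ± 0.40 (edgeR adjusted p = 0.315).

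At 14 days Ptch1 stood at 98.1, 115 and 100.1 CPM in injured control and 72.6, 113 and 99.2 CPM in Gsx1 libraries. At 35 days the injured libraries split. The sham libraries had 88.6, 105 and 122 CPM. Injured controls had 30.9, 89.3, 85.4 and 20.4 CPM, and Gsx1 libraries had 102, 102, 25.9 and 90.8 CPM, so that replicates 1 and 4 of the controls and replicate 3 of Gsx1 lay far below the rest. The Nkx6.1 libraries had 54.3, 78.2 and 57.7 CPM. In those 3 low libraries the summed myelin genes stood at 33010, 36227 and 35120 CPM, against 22246 to 26035 CPM in the other 5 control and Gsx1 libraries of that day. The summed astrocyte genes stood at 5289, 3810 and 4394 CPM, against 6464 to 6676 CPM. Control replicates 1 and 4 had Xist at 407 and 676 CPM, against 0.34 and 2.51 CPM in replicates 2 and 3. Gsx1 replicate 3 was low in Xist (3.70 CPM). Sham replicate 3 and Nkx6.1 replicate 2, high in Xist (520 and 666 CPM), had the highest Ptch1 of their groups. The part of these cell types and of sex in this split of the Ptch1 levels was not tested. Injured control against sham differed by -0.90 ± 0.37 (edgeR adjusted p = 0.0588), with DESeq2 giving an adjusted p of 0.0431 and edgeR with high Xist as a covariate 0.0449. The value hung on single control libraries. Without the high replicate 2 or 3 it was -1.21 (edgeR adjusted p = 0.0143) or -1.17 (0.0228), without the low replicate 1 or 4 it was -0.68 (0.175) or -0.62 (0.2), and without both libraries that held Xist together with Ddx3y it was -0.60 (0.225).

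Hhip (chromosome 8, 79965851 to 80058006, minus strand) encodes a membrane protein that binds and traps Hedgehog ligands. At 3 days it had 38.9, 46.6 and 49.6 CPM in sham and 27.2, 49.0 and 28.6 CPM in injured control libraries, which overlapped. Gsx1 libraries had 18.0, 27.0 and 46.7 CPM and Nkx6.1 libraries 17.6, 12.0 and 21.4 CPM, the latter all below the injured controls. That Nkx6.1 difference was -1.04 ± 0.32 (log2, SE, edgeR adjusted p = 0.109); DESeq2 gave an adjusted p of 0.0445, and without Nkx6.1 replicate 3 edgeR gave 0.0233.

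Hhip stood at 35.0, 34.9 and 28.8 CPM in injured control and 23.2, 38.3 and 35.0 CPM in Gsx1 libraries at 14 days. At 35 days it had 37.4, 38.8 and 40.5 CPM in sham, 14.1, 30.4, 28.3 and 20.7 CPM in injured control, 26.8, 35.6, 19.3 and 33.1 CPM in Gsx1, and 16.8, 30.2 and 19.7 CPM in Nkx6.1 libraries. All 11 injured libraries lay below the 3 sham libraries. Hhip fell by 0.73 ± 0.29 on the log2 scale in injured controls (1.66-fold, SE, edgeR adjusted p = 0.0484). The call was lost without both libraries that held Xist together with Ddx3y (edgeR adjusted p = 0.139), without any 1 of the 3 sham libraries (0.0849 to 0.12) and without injured control replicate 1 (0.149) or 4 (0.123). It was also lost without the filter (0.0574), with only the compared groups fitted (0.0799) and with high Xist as a covariate (0.0544).

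Ptch1 and Hhip moved together across the 10 groups, with a Pearson r of 0.91 over the group means of log2 CPM. This is a description, since both genes share the depth and cell makeup of the same libraries. Shh correlated with Hhip at 0.80 and with Ptch1 at 0.76, and Ptch1 with Gli1 at 0.42, all over the same 10 group means. The libraries lowest in Ptch1 at 35 days (20.4, 25.9 and 30.9 CPM) were also the 3 lowest of the control and Gsx1 libraries in Hhip (20.7, 19.3 and 14.1 CPM), while their Gli1 levels were 27.4, 8.78 and 4.06 CPM.

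**Figure D3:**
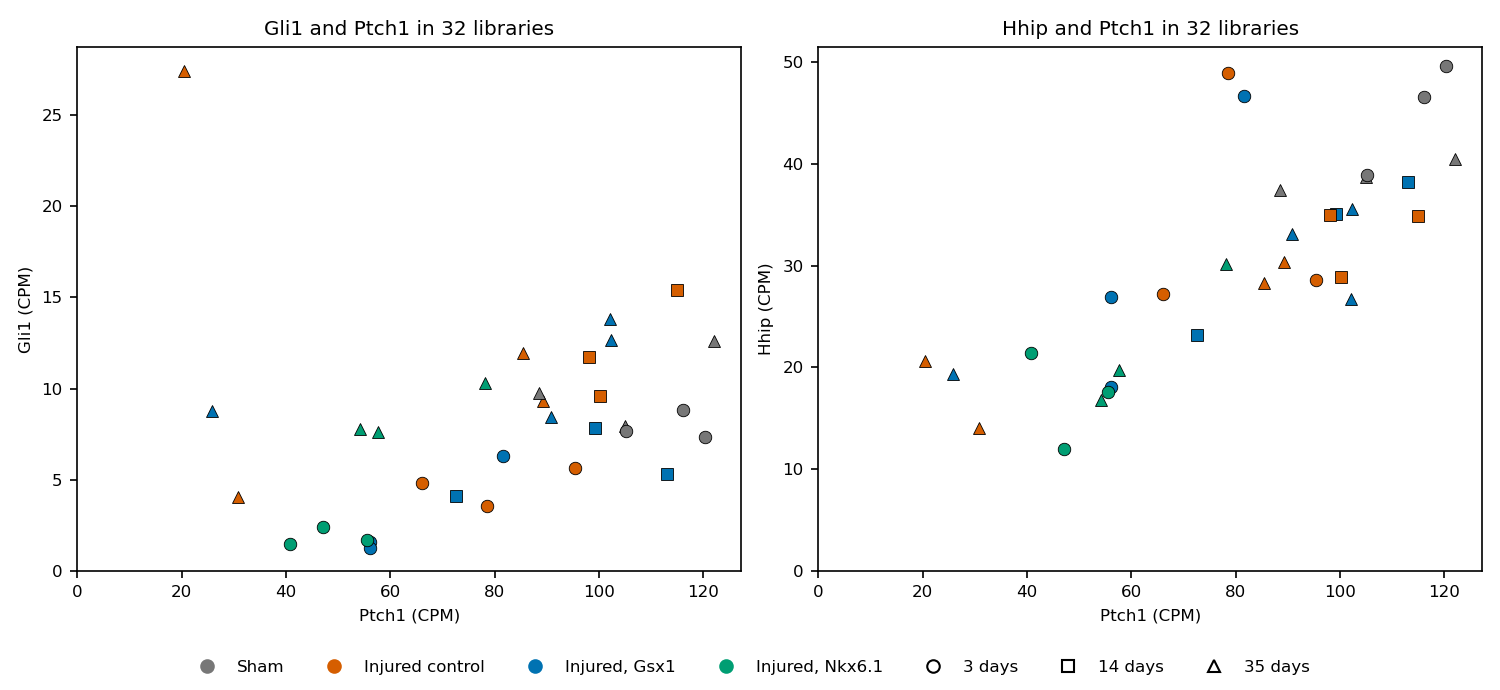
Gli1 (left, vertical axis) and Hhip (right, vertical axis) against Ptch1 (horizontal axis), all in CPM on linear axes from 0, with 1 point for each of the 32 libraries, colour for the group and shape for the time. Hhip follows Ptch1 over most libraries, whereas the library with the lowest Ptch1 (20.4 CPM, injured control, 35 days) has the highest Gli1 (27.4 CPM).

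Boc (chromosome 16, 44485049 to 44558897, minus strand) is a co-receptor that presents the ligand to Ptch1. At 3 days it had 22.6, 18.4 and 22.1 CPM in sham, 30.4, 30.6 and 27.6 CPM in injured control, 38.4, 28.5 and 25.4 CPM in Gsx1, and 24.2, 30.7 and 42.7 CPM in Nkx6.1 libraries. All 9 injured libraries lay above the 3 sham libraries. Boc rose by 0.49 ± 0.19 on the log2 scale in injured controls (1.40-fold, SE, edgeR adjusted p = 0.0484). The call did not hold when any 1 of the 6 libraries was left out (adjusted p 0.0608 to 0.155) and held on the 6 libraries fitted alone (adjusted p = 0.00652).

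Boc stood at 25.0, 28.1 and 32.6 CPM in injured control and 22.7, 26.2 and 21.8 CPM in Gsx1 libraries at 14 days. At 35 days it ranged from 20.2 to 26.2 CPM in sham and from 17.8 to 31.4 CPM over the 11 injured libraries, and the ranges overlapped. The injured control difference was then 0.23 ± 0.18 (log2, SE, edgeR adjusted p = 0.333).

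Smo (chromosome 6, 29735503 to 29761365, plus strand), the membrane protein that carries the signal inward, showed the clearest separation. At 3 days it had 32.3, 39.9 and 40.8 CPM in sham and 60.3, 55.9 and 77.7 CPM in injured control libraries. Gsx1 libraries had 63.0, 61.8 and 68.3 CPM and Nkx6.1 libraries 57.8, 59.3 and 65.4 CPM. All 9 injured libraries lay above the sham libraries, and the 3 injured groups overlapped. Smo rose by 0.78 ± 0.11 on the log2 scale in injured controls (1.72-fold, SE, edgeR adjusted p = 8.33e-06), and stayed called when any 1 library was left out, at 0.64 to 0.87. The summed reactive astrocyte genes ran from 1960 to 2510 CPM in sham and from 8444 to 9159 CPM in injured control libraries. Of these genes 6 of 6 were higher (19.5% of all genes). Other lists separated too. Macrophage genes summed to 218 to 256 CPM in sham and 1955 to 3277 CPM in injured control, and endothelial genes to 230 to 250 and 378 to 460 CPM. The part of each was not tested.

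At 14 days Smo had 49.3, 54.9 and 50.6 CPM in injured control and 47.8, 44.8 and 49.6 CPM in Gsx1 libraries, between the injured levels of 3 days and the sham levels. At 35 days it had 35.6, 33.9 and 35.1 CPM in sham, 42.9, 50.6, 50.9 and 55.5 CPM in injured control, 44.3, 43.7, 38.7 and 42.9 CPM in Gsx1, and 41.1, 42.7 and 45.2 CPM in Nkx6.1 libraries. All 11 injured libraries still lay above the 3 sham libraries. Smo rose by 0.52 ± 0.10 in injured controls against sham (1.43-fold, edgeR adjusted p = 0.000515), and leaving out any 1 library gave 0.47 to 0.58 with an adjusted p of at most 0.0049.

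Within injured controls, Smo fell by 0.37 ± 0.10 on the log2 scale from 3 to 35 days (edgeR adjusted p = 0.0191). Without control replicate 3 of day 3 the change was -0.25 with an adjusted p of 0.141, and with only the compared groups fitted the adjusted p was 0.233. At 35 days the labelled treatments lay slightly under the controls, with Gsx1 at -0.24 ± 0.09 (95% interval -0.43 to -0.04, edgeR adjusted p = 0.218) and Nkx6.1 at -0.22 ± 0.10 (95% interval -0.43 to -0.01, adjusted p = 0.398), and neither passed. At 3 days the Gsx1 difference was -0.01 ± 0.11, with a 95% interval of -0.23 to 0.22.

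Gli1 (chromosome 10, 127329882 to 127341974, minus strand) is the Gli factor whose transcription follows pathway activity in textbook accounts. At 3 days it had 7.67, 8.81 and 7.31 CPM in sham, 4.83, 3.56 and 5.62 CPM in injured control, 1.57, 1.26 and 6.30 CPM in Gsx1, and 1.69, 2.42 and 1.45 CPM in Nkx6.1 libraries. All 9 injured libraries lay below the sham libraries, and the Nkx6.1 libraries all lay below the injured controls. Injured control against sham differed by -0.77 ± 0.49 (log2, SE, edgeR adjusted p = 0.23), and fitted on those 6 libraries alone by -0.75 with an adjusted p of 0.0243. Nkx6.1 against injured control differed by -1.33 ± 0.53 (edgeR adjusted p = 0.191). In those Nkx6.1 libraries the astrocyte genes summed to 3651 to 4801 CPM, against 5343 to 7005 CPM in the controls, and the macrophage genes to 3784 to 6926 CPM, against 1955 to 3277 CPM. Their part in the lower Gli1, Ptch1, Hhip and Shh levels was not tested.

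At 14 days Gli1 had 11.8, 15.4 and 9.62 CPM in injured control and 4.10, 5.34 and 7.85 CPM in Gsx1 libraries, which did not overlap. The difference was -1.09 ± 0.48 (log2, SE, edgeR adjusted p = 0.759). The same Gsx1 libraries had 545 to 784 CPM of fibroblast and pericyte genes and 300 to 830 CPM of Schwann cell genes, against 1973 to 2351 and 991 to 1876 CPM in the controls, and their part was not tested. For Gsx1 at 14 days the ranges did not overlap for 2 of the 10 genes (Gli1 and Nkx6-2), against 15.9% of all genes.

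At 35 days Gli1 had 9.78, 7.97 and 12.6 CPM in sham, 4.06, 9.31, 12.0 and 27.4 CPM in injured control, 13.8, 12.7, 8.78 and 8.44 CPM in Gsx1, and 7.76, 10.3 and 7.62 CPM in Nkx6.1 libraries. The injured controls spanned both ends of the scale. From 3 to 35 days Gli1 rose by 1.50 ± 0.47 in injured controls (2.83-fold, log2 SE, edgeR adjusted p = 0.0368), though the ranges overlapped, since control replicate 1 of day 35 lay within the range of day 3. Without control replicate 4 of day 35, the library with 27.4 CPM, it was 0.86 with an adjusted p of 0.176. The call was also lost without any 1 of the 3 controls of day 3 (0.0771 to 0.128), with only the compared groups fitted (0.218) and with high Xist as a covariate (0.0528). That library also had 3151 CPM of neuronal and 1847 CPM of fibroblast genes, against 5154 to 6872 and 303 to 819 CPM in the other 3 controls, and their part was not tested. The Gli1 locus overlaps Arhgap9 and an antisense transcript on the opposite strand, so some of its reads may belong to either.

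Gli2 (chromosome 1, 118834132 to 119053619, minus strand), the main Gli activator of the embryonic cord, stayed between 4.71 and 13.1 CPM in all libraries, and 0 comparisons called it. Its sham libraries had 8.38, 9.28 and 9.09 CPM at 3 days and 5.79, 5.77 and 7.71 CPM at 35 days, which did not overlap. That sham difference of -0.47 ± 0.27 (log2, SE) had an edgeR adjusted p of 0.754.

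Gli3 (chromosome 13, 15463235 to 15730026, plus strand), the main Gli repressor, had 9.95, 9.68 and 8.55 CPM in sham and 11.1, 14.3 and 11.8 CPM in injured control libraries at 3 days. All 9 injured libraries of that day, from 10.6 to 14.5 CPM, lay above the sham libraries. The injured control difference of 0.40 ± 0.17 (log2, SE) missed the threshold (edgeR adjusted p = 0.0694). At 35 days it was 0.35 ± 0.16 (adjusted p = 0.0906), with 0.56 (adjusted p = 0.0267) without sham replicate 3 and 0.18 (adjusted p = 0.453) without sham replicate 1. Sham libraries then had 7.20, 9.41 and 12.2 CPM and injured controls 13.5, 12.1, 13.4 and 10.0 CPM. For Gsx1 against injured control the Gli3 difference stayed between -0.10 and -0.04 at the 3 times.

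Nkx6-1 (chromosome 5, 101658139 to 101664996, minus strand), which specifies ventral progenitors and motor neurons in the embryo, had 7.60, 8.01 and 8.14 CPM in sham and 7.55, 8.98 and 7.00 CPM in injured control libraries at 3 days. Gsx1 libraries had 6.29, 7.08 and 9.62 CPM. Libraries labelled Nkx6.1 had 3.62, 6.11 and 5.71 CPM, all below the 3 injured controls, at -0.60 ± 0.23 (log2, SE, 95% interval -1.08 to -0.13, edgeR adjusted p = 0.176). This is the opposite side of 0 from a higher level of the counted transcript.

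At 14 days Nkx6-1 had 6.26, 6.00 and 8.31 CPM in injured control and 9.07, 8.89 and 7.98 CPM in Gsx1 libraries. At 35 days it had 8.45, 5.09 and 7.55 CPM in sham and 12.6, 9.79, 10.2 and 11.4 CPM in injured control libraries, which did not overlap. Gsx1 libraries had 12.7, 9.49, 9.63 and 7.67 CPM, and libraries labelled Nkx6.1 had 8.40, 7.90 and 12.4 CPM. Nkx6-1 rose by 0.64 ± 0.21 on the log2 scale in injured controls against sham (1.56-fold, SE, edgeR adjusted p = 0.0218). The ependymal cell genes summed to 43.7 to 47.3 CPM in these sham and 62.7 to 78.2 CPM in these injured control libraries. Of these genes 2 of 6 were higher (21.3% of all genes), and their part was not tested. The call was lost without sham replicate 2 (adjusted p = 0.14) and, narrowly, without injured control replicate 1 (0.055) or 4 (0.0538), without both libraries that held Xist together with Ddx3y (0.0557) and with only the compared groups fitted (0.0835). Nkx6.1 against injured control at 35 days differed by -0.20 ± 0.21 (adjusted p = 0.679). The injury effect was larger at 35 than at 3 days by 0.65 ± 0.31 on the log2 scale, with an edgeR adjusted p of 0.506 for that difference.

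Nkx6-2 (chromosome 7, 139579376 to 139582797, minus strand) had 55.3, 50.6 and 53.3 CPM in sham and 58.6, 62.9 and 55.4 CPM in injured control libraries at 3 days, a difference of 0.15 ± 0.17 (log2, SE, edgeR adjusted p = 0.522). At 14 days it had 42.5, 40.7 and 53.2 CPM in injured control and 68.9, 60.0 and 57.2 CPM in Gsx1 libraries, which did not overlap. The Gsx1 difference was 0.45 ± 0.17 (edgeR adjusted p = 0.642). The summed myelin genes ran from 26578 to 30397 CPM in those Gsx1 libraries and from 19475 to 23215 CPM in the controls, and their part was not tested.

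At 35 days Nkx6-2 had 59.8, 57.8 and 46.8 CPM in sham and 83.5, 49.5, 57.3 and 76.9 CPM in injured control libraries. The 2 high controls are replicates 1 and 4, which were also high in myelin genes and in Xist and low in Ptch1. Sham replicate 3 and Nkx6.1 replicate 2, also high in Xist, had the lowest Nkx6-2 of their groups (46.8 and 43.0 CPM). The part of sex in this spread was not tested. Injured control against sham differed by 0.28 ± 0.16 (edgeR adjusted p = 0.165). The difference was 0.15 (adjusted p = 0.472) without control replicate 1 and 0.40 (adjusted p = 0.0399) without control replicate 2. The end of Nkx6-2 overlaps Inpp5a on the opposite strand, so reads of the pair may not be separated.

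The Nkx6.1 group at 3 days stood apart from injured controls, without overlap, for 5 of the 10 genes (Shh, Ptch1, Gli1, Hhip and Nkx6-1, all lower), against 18.1% of all genes. The median log2 fold change of the 10 was -0.47, beside -0.00 over all genes. Smo, Gli3, Boc and Nkx6-2 overlapped, with differences between -0.09 and 0.14, as did Gli2 at -0.34 ± 0.26. At 35 days the same group overlapped the controls in all 10 genes, with a median of -0.19 beside -0.03. Gsx1 against injured control had medians of -0.04, -0.10 and -0.11 at 3, 14 and 35 days, beside 0.00, 0.01 and -0.03 over all genes.

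The other genes of the pathway were counted in lists by role. Over all genes tested, 35.5% were called after injury at 3 days (19.5% higher, 16% lower) and 36.8% at 35 days (21.3% higher, 15.5% lower), and each list is to be read against these shares. Of 6 ligand and release genes tested, 0 were called at 3 days (35.5% of all genes) and 1 at 35 days (36.8%) after injury, with list medians of 0.32 and 0.32 (log2). The 1 was Dhh, a ligand known from Schwann cells, which rose by 3.93 ± 1.23 (edgeR adjusted p = 0.014) from 0.22 ± 0.10 to 3.45 ± 3.86 CPM (SD, n = 3 and 4), with overlapping ranges and 2 to 4 counts in each sham library. In the Schwann cell list, which includes Dhh, 4 of 6 genes were higher in the same comparison, and its sum ran from 246 to 330 CPM in sham and from 342 to 1281 CPM in injured control libraries, a part not tested. Scube1, which helps release the ligand, fell by 1.04 ± 0.30 in injured controls from 3 to 35 days (edgeR adjusted p = 0.0242). It was 1 of 6 called in this list, where 11% of all genes were. In the lists below, over the same time, 1 of 4 receptors and 1 of 9 target genes rose. In turn, 3 of the target genes and 1 of 16 ventral factors fell. Of 13 transducers and 11 cilium genes, 0 were called.

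Of 4 further receptors and co-receptors, 0 were called at 3 days (35.5% of all genes) and 2 rose at 35 days (21.3%). Gas1, a ligand-binding co-receptor, rose by 1.26 ± 0.27 (log2, SE, edgeR adjusted p = 0.000913) from 10.2 ± 1.92 to 24.3 ± 11.4 CPM (SD, n = 3 and 4). Lrp2, a large endocytic co-receptor, rose by 1.27 ± 0.38 (adjusted p = 0.0122). Cdon, the relative of Boc, differed by -0.15 ± 0.23 at 3 days and 0.42 ± 0.21 at 35 days and was not called. The list medians were -0.09 and 0.84.

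Of 13 intracellular transducers, 2 rose and 3 fell at 3 days, and 3 rose and 3 fell at 35 days, with medians of 0.01 and -0.07. These 5 and 6 calls lie near the shares over all genes (35.5% and 36.8%). Evc, a ciliary partner of Smo, rose by 0.51 ± 0.17 and 0.83 ± 0.16 at the 2 times, and Arrb2, which binds Smo, by 0.57 ± 0.15 and 0.57 ± 0.14. The protein kinase A subunits, which restrain Gli factors, fell, with Prkaca lower by 0.64 ± 0.17 and 0.61 ± 0.15 and Prkacb by 0.63 ± 0.18 and 0.65 ± 0.17. Gsk3b, another kinase acting on Gli factors, also fell at both times, and Kif7, the ciliary kinesin of the pathway, was called higher at 35 days (0.02 ± 0.21 at 3 days and 0.51 ± 0.20 at 35 days). Sufu, the cytoplasmic Gli inhibitor, was not called (0.28 ± 0.17 and -0.07 ± 0.16).

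Of 11 genes of transport in the primary cilium, 1 rose and 4 fell at 3 days, and 1 rose and 2 fell at 35 days, with medians of -0.29 and -0.08. These 5 and 3 calls also lie near the shares over all genes (35.5% and 36.8%). Tulp3, which brings receptors into the cilium, rose by 0.60 ± 0.14 and 0.57 ± 0.13. Kif3a, a motor subunit of outward transport, fell by 0.57 ± 0.11 (edgeR adjusted p = 0.000419) and 0.34 ± 0.10 (adjusted p = 0.0147). Ift88, Bbs4 and Dync2h1 fell at 3 days, and Ttc21b at 35 days. The summed neuronal markers were lower in the same comparisons, and their part in the cilium list was not tested.

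Of 9 textbook target genes outside the list of 10, 4 rose and 1 fell at 3 days (19.5% and 16% of all genes) and 6 rose at 35 days (21.3%), with medians of 1.17 and 0.67 beside 0.01 and 0.04 over all genes. At 3 days Ccnd1, Ccnd2 and Cdk6, which drive entry into the cell cycle, rose by 1.60 ± 0.28, 1.17 ± 0.22 and 2.40 ± 0.55 (log2, SE), and Foxf2, a forkhead factor of mesenchyme, by 1.26 ± 0.25. Sfrp1, a secreted Wnt inhibitor, fell by 1.01 ± 0.24. At 35 days Ccnd2 (1.35 ± 0.21), Bcl2 (0.58 ± 0.14), Foxf1 (1.90 ± 0.50), Cdk6 (2.27 ± 0.65) and Foxf2 (0.67 ± 0.24) rose. Foxl1 also passed, but had 0 counts in all sham libraries and 0.47 ± 0.73 CPM (SD, n = 4) in injured controls, so no fold is given. The targets among the 10 genes are not in this list and lay mostly on the other side of 0. At 3 and 35 days Ptch1 differed by -0.51 and -0.90, Hhip by -0.37 and -0.73 and Gli1 by -0.77 and 0.38. Of these only Hhip at 35 days was called. The summed macrophage genes were higher in the same comparisons, and their part in the target list was not tested.

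Of 16 tested of 21 listed ventral cord factors, 2 rose and 1 fell at each time, with list medians of -0.09 and -0.35. These 3 of 16 calls lie below the shares over all genes (35.5% at 3 days and 36.8% at 35 days). Dbx2 (0.62 ± 0.16) and Irx5 (0.61 ± 0.23) rose at 3 days. At 35 days Pax6 (1.01 ± 0.22, edgeR adjusted p = 0.00117) and Irx5 (0.72 ± 0.22) rose. Olig2, the factor of motor neuron and oligodendrocyte progenitors, fell by 0.57 ± 0.09 (adjusted p = 4.9e-05), from 86.8 ± 3.62 to 58.7 ± 6.81 CPM (SD, n = 3 and 4). Its injury effect differed between the times by -0.64 ± 0.13 (edgeR adjusted p = 0.03), and at 3 days it stood at 80.1 ± 9.07 CPM in sham and 84.1 ± 2.78 CPM in injured controls. None of the genes in these 6 lists passed in a Gsx1 or Nkx6.1 comparison, where edgeR called 0% of all genes except in the Nkx6.1 comparison at 3 days. Gsk3b, Kif7, Dync2h1, Sfrp1, Foxl1 and Foxf2 at 35 days, and the uncalled Cdon and Sufu, lie outside the rule of up to 4 called genes per list and were named after their values were seen.

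**Figure D4:**
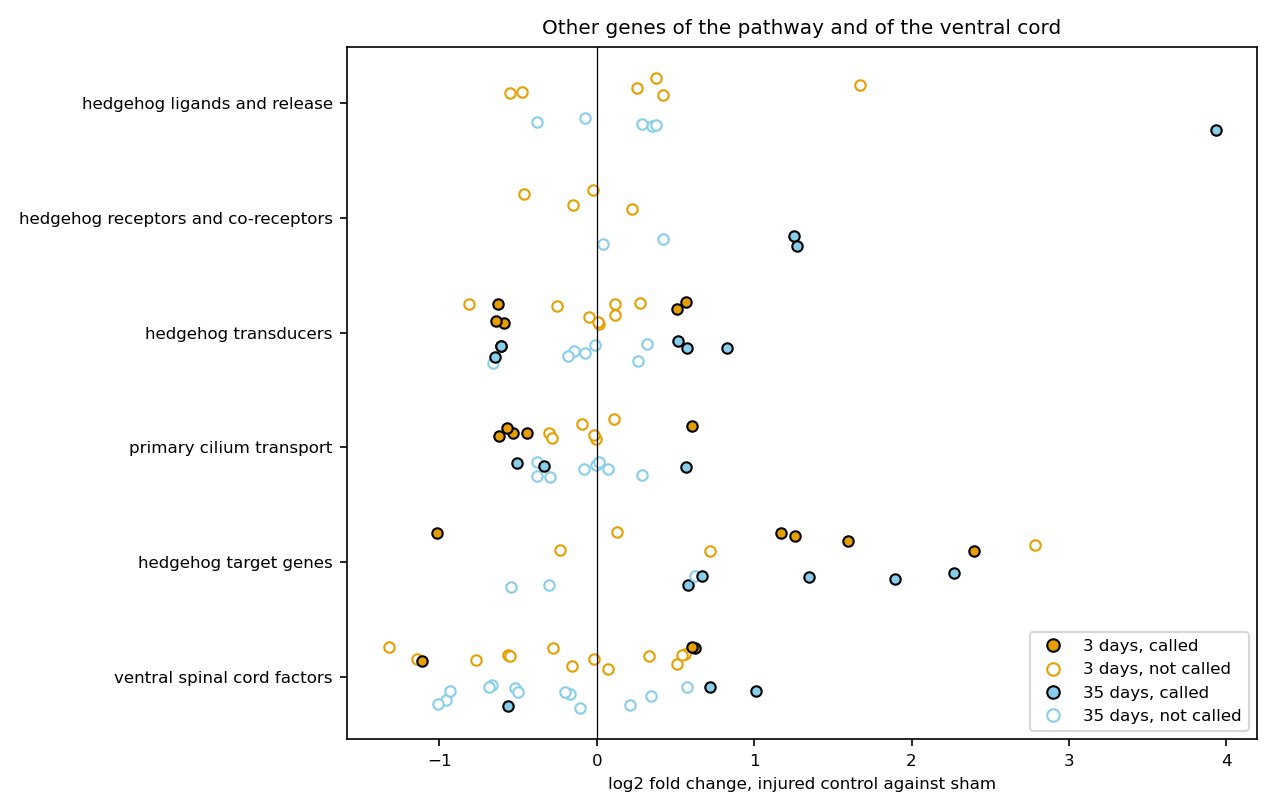
log2 fold change of injured control against sham (horizontal axis) for the tested genes of 6 lists (vertical axis), at 3 days (orange) and 35 days (blue), with filled points for adjusted p under 0.05 over all genes; Foxl1 at 35 days, with 0 counts in all sham libraries, is left out. The listed target genes, which leave out Ptch1, Hhip and Gli1, lie mostly to the right at both times (medians 1.17 and 0.67). Transducers and cilium genes lie on both sides of 0.

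By likeness of group means of log2 CPM over the 10 groups, the closest genes to Smo were Inppl1 (Pearson r = 0.990), Pml and Tmem198b, and to Boc they were Unc119b (0.983), Hrct1 and Mbnl3. Ptch1 lay closest to Trim9 (0.978), Clcn6 and Grlf1, and Hhip to Pik3c2b (0.972), Slc22a23 and Cdh10. Gli1 lay closest to Ctxn3 (0.961), Prdm16 and Calcoco1, Gli2 to Ccdc152, Cftr and Plekhg1, and Gli3 to Col4a5, Amotl2 and Fmn1. Shh lay closest to Stc2 (0.955), Bmp2 and Ntng2, Nkx6-1 to Mmaa, Krtap17-1 and Luc7l2, and Nkx6-2 to Il18 (0.913), Phgdh and Car4. Among the 10 genes, Smo and Boc were alike (0.93) and Smo and Gli1 opposite (-0.70). The closest genes were the highest among the genes tested outside the 10, with predicted or clone-based names left out. All these values are descriptions over 10 group means, in which the genes share the depth of the same libraries.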

How the data were processed

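Bulk RNA-seq of spinal cord segments was analysed from the raw counts that the authors deposited, not normalized, in a table of genes by 32 libraries. Per the submitters' processing notes, the tools were HISAT2, SAMtools, HTSeq and DESeq2 (no versions) and the build was mm10 or GRCm38. The strand setting and the treatment of multiply matching reads were not given in the sources used here.

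Counts were filtered with edgeR's filter (minimum count 10, minimum total 15) and scaled by TMM. The main test was the quasi-likelihood F test of edgeR (version 4.0.16, with limma 3.58.1 and R 4.3.3) in 1 fit over all 10 groups and no covariate. It left 22 degrees of freedom for the residuals, with 4.4 from the prior, and a biological coefficient of variation that came to 20.8% in common. Calls used Benjamini-Hochberg adjustment over 16314 genes; 2504 of the 23420 genes had no counts. The SE comes from the unshrunk coefficient and F, and the 95% interval uses that SE around edgeR's reported log2 fold change. Alternatives were DESeq2 1.42.0, no filter, only the compared groups, a replicate block, high Xist as a covariate, leaving out libraries, and, chosen after seeing the data, leaving out both libraries high in muscle genes. CPM per kilobase used exon lengths of GENCODE M21, which also gave positions.

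The 10 genes and the lists were chosen with earlier results of these data known. Named genes were the 10, up to 4 called genes with the smallest p per list and comparison, and the 3 genes most like each of the 10. In the lists, Grk2 was matched as Adrbk1 and Hbb-bs as Beta-s, and Dnah12 and Hbb-bt were not matched. Results for some listed genes are not reported here.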

Additional observations from a re-analysis of the deposited data

Results flagged for a closer look

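Within the groups of 4 libraries, a library was picked out when its distance from the nearest other library took more of the group's range than Dixon's 95% critical value of 0.829. Of 20 such groups (10 genes in 2 groups), 2 were picked out, where chance gives about 1 in 20, and both come from Gsx1 replicate 3 at 35 days. Ptch1 stood at 25.9 CPM in it, against 90.8 to 102 CPM in the other 3 libraries, and Gli3 at 9.27 CPM, against 12.6 to 12.7 CPM. The summed myelin genes stood at 35120 CPM in this library, against 22246 to 26035 CPM in the other 3, and the summed astrocyte genes at 4394 CPM, against 6483 to 6676 CPM. Their part in the levels was not tested.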

How the results depend on the processing

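Of the counts of called genes among the 10, the injury count of 2 at 3 days became 4 with only the compared groups fitted. It became 1 without the filter, with high Xist as a covariate and in each of 6 leave-one-out fits (range 1 to 1). It was also 1 without both libraries that held Xist together with Ddx3y and without both libraries high in muscle genes. The injury count of 3 at 35 days became 1 with only the compared groups fitted. It was also 1 without the libraries that held Xist together with Ddx3y. When 1 library was left out, it ranged from 1 to 5. With high Xist as a covariate it was again 3, but Ptch1 took the place of Hhip. The Nkx6.1 count of 1 at 3 days became 2 with DESeq2 and 0 without the filter, with only the compared groups fitted and without the libraries high in muscle genes, and ranged from 0 to 2 when 1 library was left out. The count of 2 between 35 and 3 days in injured controls became 0 with only the compared groups fitted and without the libraries high in muscle genes. It became 1 with high Xist as a covariate and 1 without the libraries that held Xist together with Ddx3y. When 1 library was left out, it ranged from 0 to 2. The counts of 0 for Gsx1 at the 3 times, Nkx6.1 at 35 days, sham over time and the difference of injury effects remained 0 in each alternative run. Smo kept its rise at 3 and 35 days in each alternative, and no fold change examined changed sign; the cause of the other changes was not tested beyond the number of libraries and genes that each alternative leaves. Over all genes, only the compared groups fitted called 7032 genes instead of 5788 for injury at 3 days, 2195 instead of 6009 at 35 days, 457 instead of 1797 over time and 1 instead of 55 for Nkx6.1 at 3 days.

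The reported fit had no pairing by replicate number, since the labels tie no number to an animal or day. The correlation of their deviations from the group means ran from -0.469 to 0.331 over 28 pairs, with 6 above 0.1. With the replicate block, the count of called genes was 1 for injury at 3 days (Boc lost) and 1 over time in injured controls (Gli1 lost, 1.12, adjusted p = 0.14), and other counts among the 10 genes did not change.

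Gli1 had as few as 21 counts in a library and Shh 40, which limits what can be seen of their smaller differences.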
